A study of Homo sapiens with 22 samples.

Results

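The genes described here are 44 genes of the synaptic vesicle, its release site and the contacts that hold a synapse together, out of 35237 gene symbols in the count table. They were taken by symbol from a written list, and all 44 were found in the table. The list holds 4 vesicle membrane proteins, 3 synapsins, 6 synaptotagmins, 7 SNAREs and SNARE partners, 12 active zone and RAB3 genes, 4 genes of vesicle endocytosis, 4 of synaptic adhesion and 4 postsynaptic scaffolds.

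At a chemical synapse, vesicles filled with transmitter are tethered by the synapsins, docked at the active zone by RIM, bassoon, piccolo and RAB3 proteins, and primed by UNC13 (Munc13) proteins. Fusion is driven by a complex of SNARE proteins on the vesicle (VAMP) and on the plasma membrane (syntaxin 1 and SNAP25), with complexins as clamps and synaptotagmins as calcium sensors, after which dynamin, synaptojanin and amphiphysin take part in retrieving the membrane. Many of these genes are also used for regulated secretion in endocrine and neuroendocrine cells, and neuroblastoma arises from the sympathetic nervous lineage, whose mature cells carry both kinds of vesicle.

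RNA was sequenced in 22 libraries of SK-N-AS and GIMEN, established neuroblastoma cell lines that the labels mark MES. SK-N-AS had 4 untreated libraries (DMEM with 10% fetal bovine serum), 4 libraries of a first stage named S1D4 (5 µM PP121 in DMEM with 1% serum, 4 days), and 4 each of S2D4 and S2D30, in which S1D4 cells went on in 5 µM PP121 plus 100 nM bufalin in Neurobasal with B27 supplement for 4 or 30 days. GIMEN had 3 untreated libraries (RPMI with 10% serum) and 3 libraries of untreated cells then kept for 30 days in 2.5 µM PP121 plus 10 nM bufalin in RPMI with 1% serum, here called D30. PP121 is a small-molecule inhibitor of tyrosine kinases and of the PI3K and mTOR kinases, and bufalin is a cardiac glycoside that inhibits the sodium pump. The 30-day arms therefore differ between the lines in dose, medium, serum and first stage as well as in the line, and these cannot be told apart. Serum was lowered or replaced along with the drugs in both lines, and in the second stage of SK-N-AS the medium changed too, with no vehicle-only group among these samples. Nothing in the labels says whether replicates were separate cultures, so p-values measure the spread between these libraries. In such bulk RNA, fewer cells of a type and less RNA per cell cannot be told apart.

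Total counts ran from 16456484 to 37506800 per library. CPM are counts scaled to library size, with TMM factors across the 22 libraries together. Correlation of log2 CPM between libraries of a group, here with TMM factors within each line, was at least 0.979 except in S2D4. There replicate 4 brought the lowest value to 0.969, and values without it stand beside several results that it changed. Of 9 adrenergic marker genes none was at the detection floor (at most 3 counts in each library of a group) in untreated SK-N-AS, whose summed level was 1651 to 1879 CPM against 884 to 1398 CPM for 9 mesenchymal markers. In untreated GIMEN the adrenergic genes PHOX2A and TH were at the floor and the mesenchymal sum was 38173 to 39776 CPM. The MES label thus matched the markers of GIMEN, while untreated SK-N-AS carried both lists.

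The stretch of 250 bases before the annotated start (RefSeq, GRCh38.p14) was at hand for 36 of the 44 genes. No entry was matched for SYN3, SYT7, SNAP25, CPLX1, RIMS2, NRXN2, SHANK1 and SHANK2. These stretches had a median GC content of 68.4% and a median of 21.5 CG pairs, against 58% and 11 over 35116 promoters of the same length. The 4 printed here hold letters of RE1, the element bound by the repressor REST, or of an AP-1 site. SYN1 is the gene with the left arm of RE1. UNC13A and SYNJ1 are 2 of 4 genes with the exact letters searched for the right arm, shown because they rose in all 3 treated SK-N-AS groups. RIMS1 had the largest fall in GIMEN. Capitals mark the letters of any motif searched.
SYN1 (chrX:47619858-47620107, minus strand): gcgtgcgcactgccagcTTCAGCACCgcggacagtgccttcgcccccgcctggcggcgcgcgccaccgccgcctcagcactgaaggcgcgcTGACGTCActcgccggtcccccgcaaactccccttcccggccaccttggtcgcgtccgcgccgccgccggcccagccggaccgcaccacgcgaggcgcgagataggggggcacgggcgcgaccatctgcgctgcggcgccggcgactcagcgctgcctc
UNC13A (chr19:17688355-17688604, minus strand): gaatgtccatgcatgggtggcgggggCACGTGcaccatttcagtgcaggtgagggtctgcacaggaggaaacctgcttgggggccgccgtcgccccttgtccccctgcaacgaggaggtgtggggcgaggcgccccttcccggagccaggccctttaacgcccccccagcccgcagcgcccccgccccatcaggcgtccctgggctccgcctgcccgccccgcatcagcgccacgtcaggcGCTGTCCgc
SYNJ1 (chr21:32728395-32728644, minus strand): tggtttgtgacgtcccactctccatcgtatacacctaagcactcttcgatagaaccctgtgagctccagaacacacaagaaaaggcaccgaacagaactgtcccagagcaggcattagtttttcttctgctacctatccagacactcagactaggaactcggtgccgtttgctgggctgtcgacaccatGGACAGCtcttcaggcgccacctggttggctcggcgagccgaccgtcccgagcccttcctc
RIMS1 (chr6:71886300-71886549, plus strand): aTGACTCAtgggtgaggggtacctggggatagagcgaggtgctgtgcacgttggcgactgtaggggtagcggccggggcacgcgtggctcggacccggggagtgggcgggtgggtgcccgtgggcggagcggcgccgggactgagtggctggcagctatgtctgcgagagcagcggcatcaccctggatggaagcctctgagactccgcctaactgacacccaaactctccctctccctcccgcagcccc

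Motifs were searched on both strands with the letters given. The left arm of RE1, TTCAGCACC, was found in SYN1 alone of the 36 genes, and in 0.288% of all promoters. The letters searched for the right arm, GGACAGC, were found in UNC13A, RAB3C, BSN and SYNJ1, 11.1% of the 36 against 4.76% of all promoters. In SYN1 the left arm is closely followed by GGACAGT. That differs from GGACAGC in the last letter only, so the exact search left it unmarked. The RNA of the 4 genes with GGACAGC did not move alike: UNC13A and SYNJ1 rose in all 3 treated SK-N-AS groups, BSN rose in S1D4 and fell in S2D30, and RAB3C was called in S1D4 alone. SYN1 also held the cyclic AMP response element TGACGTCA (1.65% of all promoters), and the E-box CACGTG was found in UNC13A alone (6.34%). The AP-1 letters TGANTCA were found in RIMS1, RAB3B and ERC2, 8.33% against 6.57%. None of the 36 held TATAAA, which 10.7% of all promoters did. A match describes the letters only.

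Of the 44 genes, 40 had enough counts to be tested in SK-N-AS, 27 in GIMEN and 41 in a model of the untreated and 30-day libraries of both lines. PPFIA2, AMPH and NLGN1 passed the filter in no model, and RIMS1 was too low in SK-N-AS. In S1D4, 18 of the 40 were higher and 3 lower than in untreated cells at an adjusted p under 0.05 (edgeR quasi-likelihood test, adjusted over all genes), where 17.6% of all 15810 tested genes were higher and 22.4% lower. In S2D4, 19 were higher and 10 lower, against 30.9% and 32.2% of all genes, and in S2D30, 18 were higher and 13 lower, against 33.8% and 36.5%. The median log2 change of the 40 genes was 0.34, 0.31 and 0.31 in the 3 treated groups, beside -0.01, -0.02 and -0.03 over all genes. The treated groups are compared with the same untreated libraries, so the 3 sets of values are not independent. Here and below, log2 values are fitted differences given ± their standard error.

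Counted in either direction, 21 of the 40 genes were called in S1D4, 29 in S2D4 and 31 in S2D30, beside 40.1%, 63.1% and 70.3% of all genes. Treated libraries lay wholly apart from untreated ones for 19, 25 and 32 of the 40, beside 38.3%, 51.2% and 66.4% of all genes. Changes called at 1 log2 unit or more were found in 11 genes upward and 1 downward in S1D4 (6.03% and 6.26% of all genes), in 12 and 7 in S2D4 (13.3% and 15.7%) and in 12 and 11 in S2D30 (17.8% and 19.2%). The 12 upward in S2D30 include SYN3 and SHANK2, which passed the count filter only through that group.

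The course over the treatment differed from gene to gene. Of the 40 genes, 6 had their highest group mean in untreated cells, 14 in S1D4, 9 in S2D4 and 11 in S2D30. The same was not counted over all genes, so these numbers are not read as particular to the synaptic genes. In all, 10 genes were higher in all 3 treated groups (SYP, SYT5, SYT11, SNAP25, STX1A, VAMP2, UNC13A, SYNJ1, NRXN3 and SHANK1), as were 9.1% of all genes. SYN2 and ERC2 were lower in all 3 (13.5% of all genes). With a term for replicates 3 and 4 of untreated and S1D4 cells only, the S2D30 call of SYT5 was lost (0.72, adjusted p = 0.0649). Such a term sets the second-stage groups against the level of untreated replicates 1 and 2. SYT4, CPLX1, CPLX2 and BSN were higher in an earlier group and lower in S2D30 (8% of all genes were called in both directions), and VAMP1 and SNAP91 were called in none (13.9%).

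**Figure D1:**
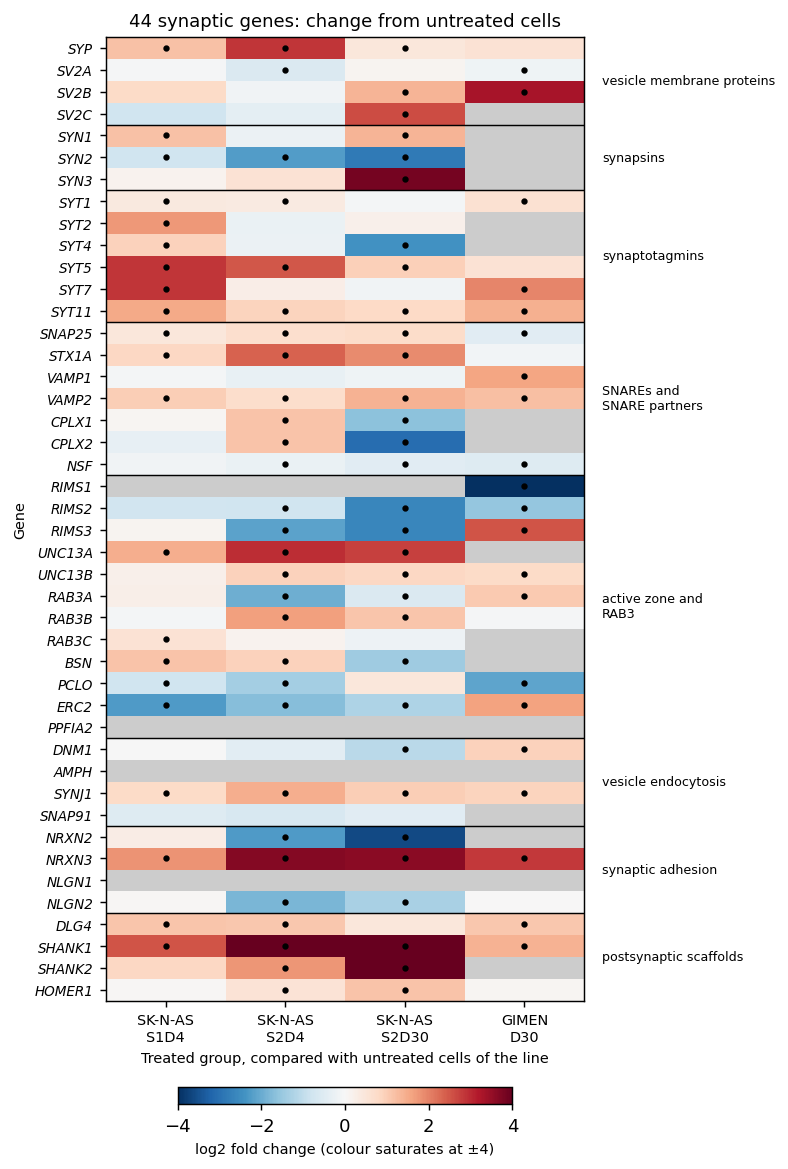
Colour gives the log2 fold change of each of the 44 genes (rows, by role) against untreated cells of the same line (columns), black dots mark an adjusted p under 0.05, and grey marks genes too low to be tested. The 6 synaptotagmins are dotted together in the S1D4 column, and SHANK1, SHANK2 and SYN3 are darkest in S2D30, where colour saturates at a log2 change of 4.

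Synaptotagmins are vesicle proteins with calcium-binding C2 domains. SYT1 and SYT2 trigger fast fusion, SYT7 is a slow high-affinity sensor, and SYT4 and SYT11 do not act as classical calcium sensors. In S1D4 all 6 listed here were higher than in untreated cells, with a median log2 change of 1.62. Synaptotagmins outside the list did not all rise: SYT16 had 53, 39, 30 and 60 counts in untreated cells and 12, 13, 8 and 17 in S1D4. In S2D30 SYT5 and SYT11 were higher and SYT4 was lower. SYT7 stood at 18.4, 24.3, 15.8 and 19.5 CPM in the 4 untreated libraries and at 124, 126, 164 and 162 CPM in S1D4. In S2D4 it was back at 23, 26.8, 26.6 and 20.1 CPM and in S2D30 at 19.8, 20, 15.6 and 16.5 CPM. Every S1D4 library was far above every library of the other 3 groups; untreated cells overlapped both second-stage groups, and S2D30 lay just below S2D4. Without S2D4 replicate 4, S2D4 differed from untreated by 0.35 (adjusted p = 0.0423), where the full fit gave 0.27 ± 0.14 (adjusted p = 0.114). The log2 difference was 2.86 ± 0.15 (adjusted p = 1.66e-09) in S1D4 against untreated and -2.59 ± 0.15 (adjusted p = 9.54e-10) in S2D4 against S1D4.

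SYT5 was at 4.4, 7.08, 4.2 and 3.57 CPM in untreated cells and at 40.3, 44.5, 28.9 and 29.1 CPM in S1D4, a log2 difference of 2.87 ± 0.33 (adjusted p = 5.39e-06). It then stood at 17.2, 19.2, 20 and 53 CPM in S2D4 and 10.6, 9.88, 8.97 and 8.95 CPM in S2D30. All treated libraries lay above all untreated ones, and S2D4 replicate 4 was the highest of all 16. The log2 difference of S2D4 from untreated was 2.48 ± 0.33 (adjusted p = 5.28e-06), or 1.94 (adjusted p = 2.69e-07) without that replicate. The fall from S2D4 to S2D30 was -1.52 ± 0.31 (adjusted p = 0.000688), or -0.97 (adjusted p = 0.000474) without it.

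SYT4 was at 82.5, 78.2, 94.7 and 93.1 CPM in untreated cells, 146, 127, 196 and 204 CPM in S1D4, 50.4, 48.7, 49.4 and 154 CPM in S2D4 and 14, 22.2, 19.6 and 11.4 CPM in S2D30. Replicate 4 of S2D4 lay within the S1D4 range, whereas the other 3 were below every untreated library, and all S2D30 libraries were lower still. The S2D30 difference was -2.41 ± 0.34 (adjusted p = 7.27e-06). The S1D4 rise of 0.92 ± 0.32 (adjusted p = 0.0286) lost its call without either of untreated replicates 1 and 2 or S1D4 replicates 3 and 4 (adjusted p 0.0572, 0.0694, 0.0724 and 0.0794). The S2D4 difference of -0.24 ± 0.32 (adjusted p = 0.53) became -0.85 (adjusted p = 0.000842) without S2D4 replicate 4.

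SYT11, the synaptotagmin with the most RNA, rose from 139, 129.7, 154 and 168 CPM to 454, 418, 412 and 423 CPM in S1D4 (1.51 ± 0.09, adjusted p = 6.07e-09), and was at 294, 289, 287 and 251 CPM in S2D4 and 254, 284, 274 and 231 CPM in S2D30. Each treated library was above each untreated one. Per kilobase of merged exons it was the highest of the 44 genes in all 4 SK-N-AS groups, with means from 28.2 to 81.5 CPM per kilobase. SYT1 moved little, by 0.39 ± 0.11 (adjusted p = 0.00794) in S1D4. SYT2 was low throughout. Its S1D4 libraries stood at 1.69, 2.5, 0.506 and 0.532 CPM against 0.219 to 0.495 CPM in untreated cells, replicates 1 and 2 being well above 3 and 4. The call (1.72 ± 0.51, adjusted p = 0.012) ended without S1D4 replicate 2 (1.22, adjusted p = 0.0647). A share of 27.2% of SYT2 exon bases overlaps a gene on the other strand, and whether counting used strand is not given in the sources used here.

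**Figure D2:**
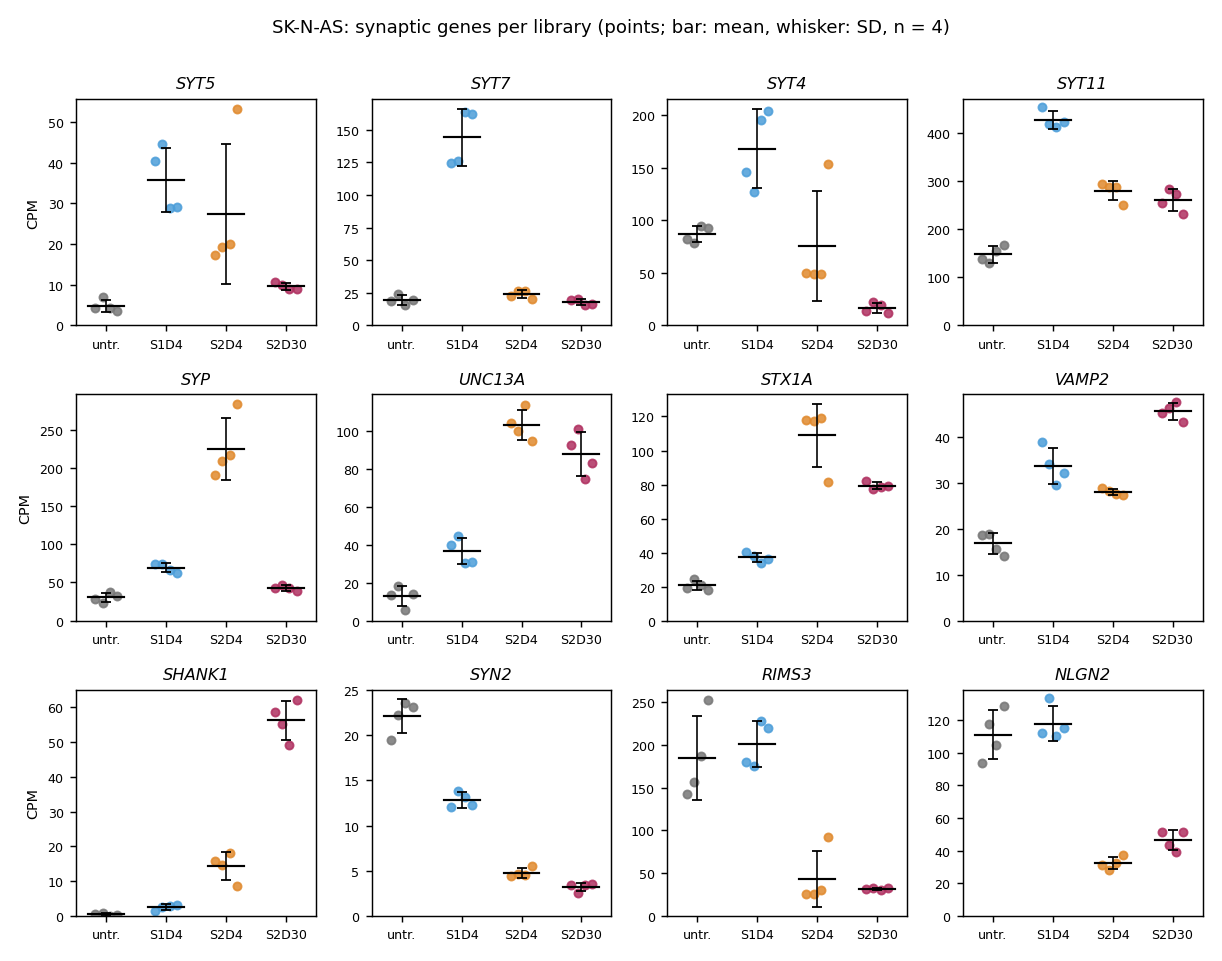
Each panel gives the CPM (vertical axis, from 0) of 1 gene in the 4 libraries of each SK-N-AS group, with the mean and SD. SYT7 is high in S1D4 and near the untreated level in the other groups, SYP peaks in S2D4, SHANK1 is highest in S2D30, and SYN2, RIMS3 and NLGN2 are lower in both second-stage groups; S2D4 replicate 4 is the high point for SYT4, SYT5 and RIMS3 in that group and the low point for STX1A.

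Synaptophysin (SYP), an abundant protein of the vesicle membrane and a common neuroendocrine marker, was highest in S2D4 and by day 30 was closer to, though still above, untreated cells. It was at 28.1, 22.9, 37.8 and 32.9 CPM in untreated cells and 73.8, 74.1, 66.6 and 61.9 CPM in S1D4, then at 190.0, 209, 217 and 283 CPM in S2D4 and 43.3, 46.4, 43.2 and 38.2 CPM in S2D30. The 4 groups did not overlap in any pair. The S2D4 difference from untreated was 2.85 ± 0.15 (adjusted p = 1.23e-10) and the fall from S2D4 to S2D30 was -2.39 ± 0.15 (adjusted p = 1.79e-09), which left S2D30 at 0.46 ± 0.14 (adjusted p = 0.00846) over untreated.

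The SV2 proteins are vesicle glycoproteins, and SV2A is the target of the drug levetiracetam. SV2A was at 94.4, 91.5, 101 and 111 CPM in untreated cells and at 57.9, 57.9, 59.2 and 97.2 CPM in S2D4, where replicate 4 alone fell within the untreated range. The S2D4 fall was -0.58 ± 0.14 (adjusted p = 0.00129), or -0.80 (adjusted p = 6.93e-08) without that replicate. S2D30, at 105, 118, 113 and 103 CPM, overlapped untreated cells (0.10 ± 0.13, adjusted p = 0.513). SV2B and SV2C were both low: SV2C reached 3.25, 2.61, 2.22 and 2.3 CPM in S2D30 against 0.247 to 0.641 CPM in untreated cells (2.60 ± 0.46, adjusted p = 8.49e-05). SV2B rose by 1.35 ± 0.46 (adjusted p = 0.0155) in S2D30, a call that ended without S2D30 replicate 2 (1.05, adjusted p = 0.0693).

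The 3 synapsins, which tether vesicles to each other and to actin, went different ways. SYN2 fell at each step, from 19.4, 22.2, 23.6 and 23.2 CPM in untreated cells to 12, 13.8, 13.2 and 12.3 CPM in S1D4, 4.42, 4.61, 4.47 and 5.57 CPM in S2D4 and 3.38, 2.51, 3.4 and 3.52 CPM in S2D30. No library of a later group reached the level of an earlier one, and S2D30 was -2.82 ± 0.13 (adjusted p = 1.37e-11) from untreated. SYN3 was at 0.148, 0.262, 0.0477 and 0.183 CPM in untreated cells and 2.54, 2.3, 1.72 and 3.17 CPM in S2D30, with all S2D30 libraries above the other 12 (3.84 ± 0.51, adjusted p = 4.21e-06). It had 1 to 11 counts in those 12 and passed the count filter only through S2D30. Its test thus adds no separate support for a rise there. SYN1 was at 5.47, 5.16, 4.29 and 3.82 CPM untreated, 14.1, 12.8, 9.2 and 7.05 CPM in S1D4, 5.08, 4.94, 4.14 and 2.37 CPM in S2D4 and 12.3, 14.4, 13.5 and 9.47 CPM in S2D30. It was higher in S1D4 (1.17 ± 0.25, adjusted p = 0.00131), not called in S2D4 (-0.23 ± 0.25, adjusted p = 0.443) and higher in S2D30 (1.36 ± 0.25, adjusted p = 0.000114). The SYN1 promoter is the one printed above with the left arm of RE1.

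Among the SNAREs, syntaxin 1A (STX1A), SNAP25 and VAMP2, which together form the fusion complex, were each higher in all 3 treated groups. STX1A was at 19.4, 24.7, 20.8 and 18.3 CPM in untreated cells, 40.5, 38.2, 33.7 and 36.2 CPM in S1D4, 118, 118, 119 and 81.3 CPM in S2D4 and 82.3, 77.3, 78.3 and 79.1 CPM in S2D30. No treated library overlapped an untreated one, and S2D4 replicate 4 was the lowest of its group. The differences from untreated were 0.81 ± 0.12 (adjusted p = 7.25e-05), 2.36 ± 0.13 (adjusted p = 1.70e-10) and 1.90 ± 0.12 (adjusted p = 7.89e-10). Of STX1A exon bases 17.9% overlap a gene on the other strand and 12.8% of its 75-base words occur elsewhere in the transcripts of GENCODE v29, so its counts are uncertain to that extent.

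VAMP2, the vesicle SNARE, was at 18.6, 18.8, 15.7 and 14.1 CPM in untreated cells, 29.5 to 38.9 CPM in S1D4, 27.3 to 28.8 CPM in S2D4 and 45.2, 46.3, 47.5 and 43.2 CPM in S2D30. Every treated library was above every untreated one and S2D30 was above all others (1.40 ± 0.11, adjusted p = 4.66e-09). SNAP25 was at 14.9, 14.8, 15 and 15 CPM in untreated cells, 24.8, 22.6, 18.3 and 17.9 CPM in S1D4, 26, 26.9, 28.1 and 16.6 CPM in S2D4 and 24.7, 25.8, 30.5 and 20.4 CPM in S2D30. All 12 treated libraries were above the 4 untreated ones, by 0.73 ± 0.16 (adjusted p = 0.000707) in S2D30. The S1D4 call (0.46 ± 0.16, adjusted p = 0.0312) ended without any 1 of 4 libraries (untreated replicates 2 and 3, S1D4 replicates 1 and 2; adjusted p 0.0575 to 0.102). VAMP1 was called in none of the 3 comparisons, although without S2D4 replicate 4 its S2D4 value was -0.59 (adjusted p = 0.00667). A share of 10.8% of VAMP2 words is found in other genes.

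Complexins clamp the assembled SNARE complex, and both were higher in S2D4 and lower in S2D30 than in untreated cells. CPLX1 was at 6.85, 5.42, 4.58 and 4.18 CPM in untreated cells, 4.64 to 7.07 CPM in S1D4, 11, 12.5, 10.1 and 13.8 CPM in S2D4 and 2.19, 1.59, 2.04 and 1.04 CPM in S2D30. S2D4 libraries were above, and S2D30 libraries below, all others, with a difference between them of -2.79 ± 0.24 (adjusted p = 8.97e-08). CPLX2 was at 1.19, 1.01, 0.477 and 0.366 CPM in untreated cells and 1.54, 1.79, 2.17 and 1.52 CPM in S2D4, and at the floor in S2D30. This put S2D30 at least 5.51-fold lower than untreated and at least 12.7-fold lower than S2D4. The CPLX2 call in S2D4 (1.15 ± 0.45, adjusted p = 0.0359) ended without untreated replicate 3 or 4 or S2D4 replicate 2 or 3 (adjusted p 0.0606 to 0.0949). NSF, the ATPase that takes the complex apart, was lower in S2D30 with a log2 value of -0.46 ± 0.10 (adjusted p = 0.000477); 25.4% of its words are shared with other genes.

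The active zone genes moved in both directions. UNC13A, which primes vesicles, stood at 13.5, 18.5, 5.73 and 13.8 CPM in untreated cells and 39.7, 44.5, 30.5 and 31 CPM in S1D4, and at 104, 99.7, 114 and 94.7 CPM in S2D4 and 92.5, 101, 74.5 and 83 CPM in S2D30. All treated libraries were above the untreated ones and all second-stage libraries above S1D4, with 2.96 ± 0.24 (adjusted p = 2.14e-08) in S2D4 and 2.73 ± 0.24 (adjusted p = 2.86e-08) in S2D30. UNC13B, its relative outside the brain as well as in it, was higher by 0.93 ± 0.15 (adjusted p = 4.38e-05) and 0.83 ± 0.15 (adjusted p = 0.000101) in those groups. RIM proteins link RAB3 on the vesicle to UNC13 and calcium channels, and RIMS2 and RIMS3 fell. RIMS3 was at 143, 157, 187 and 253 CPM in untreated cells and 180.3, 175, 229 and 220.3 CPM in S1D4, against 25.1, 25.1, 29.9 and 91.8 CPM in S2D4 and 31, 32.5, 29.8 and 32.1 CPM in S2D30. The second-stage libraries were all below the earlier ones, S2D4 replicate 4 being the nearest to them. The differences from untreated were -2.13 ± 0.33 (adjusted p = 3.21e-05) in S2D4, or -2.82 (adjusted p = 3.06e-10) without that replicate, and -2.59 ± 0.34 (adjusted p = 3.27e-06) in S2D30.

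RIMS2 was low and fell from 3.44, 2.75, 2.58 and 2.96 CPM in untreated cells to 0.483, 0.665, 0.408 and 0.434 CPM in S2D30 (-2.59 ± 0.34, adjusted p = 3.84e-06), with no overlap. Its S2D4 call (-0.80 ± 0.31, adjusted p = 0.0321) ended without untreated replicate 1 or 4 or S2D4 replicate 1 or 3 (adjusted p 0.0510 to 0.0992). RIMS1 was at 0 to 0.611 CPM in the SK-N-AS libraries. Among the RAB3 GTPases, which mark docked vesicles, RAB3A was at 16.3, 13.8, 20.3 and 18.1 CPM in untreated cells, 19.3 to 22.6 CPM in S1D4, 4.56, 6.13, 4.99 and 2.66 CPM in S2D4 and 10.5, 13.4, 11.8 and 11.6 CPM in S2D30. S2D4 was below all other groups and S2D30 below untreated (-1.95 ± 0.19, adjusted p = 2.16e-07 and -0.57 ± 0.18, adjusted p = 0.0105). RAB3B went the other way, from 3.61, 4.11, 3.34 and 4.85 CPM in untreated cells to 13.4, 12.1, 13.8 and 11.5 CPM in S2D4 and 9.48, 7.88, 8.11 and 9.51 CPM in S2D30 (1.64 ± 0.14, adjusted p = 4.57e-08 and 1.10 ± 0.14, adjusted p = 2.87e-06), again without overlap. RAB3C was called in S1D4 (0.59 ± 0.14, adjusted p = 0.00339) and not in S2D4 or S2D30, with a log2 value of -0.44 ± 0.14 for S2D4 against S1D4 (adjusted p = 0.0141; 0.0579 without S1D4 replicate 1).

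Bassoon (BSN) and piccolo (PCLO) are the giant scaffolds of the active zone. BSN was at 4.03, 7.08, 3.48 and 9.77 CPM in untreated cells, 13.4, 15.1, 11.2 and 14.7 CPM in S1D4, 12.4, 10.9, 16.8 and 7.13 CPM in S2D4 and 3.07, 2.2, 1.54 and 2.56 CPM in S2D30. S1D4 lay above and S2D30 below untreated cells without overlap (1.13 ± 0.30, adjusted p = 0.00647 and -1.41 ± 0.32, adjusted p = 0.000938), whereas the S2D4 call (0.92 ± 0.30, adjusted p = 0.0137) ended without S2D4 replicate 3 (0.70, adjusted p = 0.0614). PCLO was at 16.5, 17.4, 12.4 and 34.8 CPM in untreated cells, 10.5 to 13.3 CPM in S1D4, 8.71, 8.41, 9.27 and 5.8 CPM in S2D4 and 27.9, 22, 25.8 and 36.8 CPM in S2D30. Untreated replicate 4 was near the level of S2D30, S2D4 was below all other groups, and S2D30 was above S2D4 by 1.81 ± 0.26 (adjusted p = 2.30e-05). The S1D4 fall of PCLO (-0.81 ± 0.25, adjusted p = 0.017) ended without untreated replicate 4 (-0.42, adjusted p = 0.0864). ERC2, a scaffold that binds RIM, was at 2.28, 2.14, 1.43 and 1.07 CPM in untreated cells and 0.603, 0.518, 0.169 and 0.177 CPM in S1D4 (-2.25 ± 0.44, adjusted p = 0.000666), and at 0.227 to 0.76 CPM and 0.521 to 0.877 CPM in the second-stage groups. All 12 treated libraries were below the 4 untreated ones. The S2D30 call (-1.23 ± 0.41, adjusted p = 0.0133) ended without untreated replicate 1 (-1.02, adjusted p = 0.0518).

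Of the endocytosis genes, SYNJ1, the lipid phosphatase synaptojanin that strips clathrin from retrieved vesicles, was higher in each treated group, from 9.3 to 15.9 CPM in untreated cells to 29.5 to 36.7 CPM in S2D4 (1.46 ± 0.15, adjusted p = 2.47e-07) and 20.3 to 28.2 CPM in S2D30 (0.99 ± 0.15, adjusted p = 1.23e-05). Dynamin 1 (DNM1), the GTPase that pinches off vesicles, was at 91.9, 121, 73.1 and 76.7 CPM in untreated cells, 76.5 to 116 CPM in S1D4, 61.1, 56.9, 57.9 and 100.2 CPM in S2D4 and 41.2, 49.4, 39 and 46.4 CPM in S2D30. S2D30 was below every untreated library (-1.08 ± 0.20, adjusted p = 0.000132). In S2D4 replicate 4 lay within the untreated range and the other 3 below it, and the value of -0.43 ± 0.20 (adjusted p = 0.067) became -0.66 (adjusted p = 0.00251) without it. SNAP91, a clathrin adaptor, was called in no treated group. It was called lower in S2D4 without that replicate (-0.88, adjusted p = 0.0133). With the term for replicates 3 and 4 of untreated and S1D4 cells, it was called lower in S2D4 (-0.91, adjusted p = 0.00675) and S2D30 (-0.72, adjusted p = 0.0232). AMPH, amphiphysin, had at most 0.614 CPM in any SK-N-AS library.

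Neurexins on the axon bind neuroligins on the target cell. NRXN3 was at 0.519, 0.743, 0.382 and 0.794 CPM in untreated cells, 2.61, 1.46, 2.66 and 2.04 CPM in S1D4, 10, 8.9, 8.85 and 4.67 CPM in S2D4 and 7.33, 8.65, 9.2 and 5.56 CPM in S2D30. NRXN2 was at 1.43, 1.88, 2.1 and 1.95 CPM, 3.01, 3.91, 0.633 and 1.6 CPM, 0.373, 0.271, 0.282 and 0.583 CPM and 0.0439, 0.256, 0.0906 and 0.217 CPM in the same groups. The second-stage libraries of NRXN3 were all above, and those of NRXN2 all below, the untreated libraries. In S2D30 NRXN3 was 3.60 ± 0.30 (adjusted p = 1.63e-08) and NRXN2 -3.61 ± 0.56 (adjusted p = 2.27e-05) from untreated. NLGN2, the neuroligin of inhibitory synapses, was at 93.5, 117, 105 and 129 CPM in untreated cells and 110.1 to 133 CPM in S1D4, then at 31.3, 28.3, 32.3 and 37 CPM in S2D4 and 51.4, 43.6, 39.4 and 51.7 CPM in S2D30, with no overlap between stages (-1.82 ± 0.12, adjusted p = 1.54e-09 and -1.29 ± 0.12, adjusted p = 3.79e-08). NLGN1 was at 0 to 0.329 CPM in all SK-N-AS libraries.

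The 4 postsynaptic scaffolds hold receptors opposite the release site, and none of them was called lower against untreated cells. SHANK1 had the largest fitted rise of the 40 tested genes in S2D4 and in S2D30: it stood at 0.445, 0.962, 0.0477 and 0.275 CPM in untreated cells, 1.49, 2.59, 2.83 and 3.24 CPM in S1D4, 15.9, 14.7, 18.1 and 8.68 CPM in S2D4 and 58.6, 55.3, 49.1 and 62 CPM in S2D30. The 4 groups did not overlap, each being above the one before. The differences from untreated were 2.52 ± 0.42 (adjusted p = 0.000168), 5.01 ± 0.39 (adjusted p = 1.34e-08) and 6.98 ± 0.40 (adjusted p = 1.60e-10). SHANK2 was at the floor in untreated cells and reached 1.1, 1.28, 0.725 and 2.22 CPM in S2D30, at least 12.1-fold higher. With at most 8 counts in any library of the other groups, it too passed the count filter only through S2D30. Its S2D4 call ended without untreated replicate 1 or S2D4 replicate 3 (adjusted p 0.0616 and 0.0567).

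HOMER1, which links SHANK to glutamate receptors, rose from 16, 17.4, 17.1 and 27.4 CPM in untreated cells to 44.5, 44.8, 40.2 and 47.4 CPM in S2D30, without overlap (1.15 ± 0.15, adjusted p = 2.91e-06). DLG4, which encodes PSD-95, was at 19.6, 24.3, 23.4 and 26.8 CPM in untreated cells, 51.1, 52.9, 50.9 and 53.5 CPM in S1D4, 29.2, 30, 34.8 and 107 CPM in S2D4 and 35.6, 32.6, 28.5 and 35.7 CPM in S2D30. S1D4 was higher without overlap (1.12 ± 0.31, adjusted p = 0.00843). S2D30 was above untreated cells without overlap too, but was not called in the full fit. It was called in an edgeR model of the compared groups alone (0.48, adjusted p = 0.00212). S2D4 replicate 4 was above all other SK-N-AS libraries. Without it the S2D4 difference of 1.07 ± 0.31 (adjusted p = 0.00656) was 0.38 (adjusted p = 0.00381), and S2D4 differed from S1D4 by -0.74 (adjusted p = 1.37e-05) where the full fit gave -0.06 ± 0.30 (adjusted p = 0.892).

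Between successive groups, 11 of the 40 genes were higher and 13 lower in S2D4 than in S1D4 (12 and 16 without S2D4 replicate 4), when bufalin and the neuronal medium were added, where 28.3% and 26.8% of all genes were (55.1% in either direction). The libraries did not overlap for 22 of the 40 genes (49.5% of all), and 8 rose and 9 fell by 1 log2 unit or more (8.89% and 12.8%). From S2D4 to S2D30, 12 were higher and 14 lower (12 and 15 without that replicate), against 24.4% and 26.9% (51.3% in either direction), and 26 did not overlap (50.3%). SYP, CPLX1, CPLX2, BSN, RIMS2, SYT4 and SYT5 each fell by over 1 log2 unit in the last step, and SV2B, SV2C, SYN1, SYN3, RAB3A, PCLO, SHANK1 and SHANK2 rose by over 1, that is 7 and 8 genes, beside 9.53% and 10.1% of all genes. Without S2D4 replicate 4 the fall of SYT4 was -1.57 (adjusted p = 3.42e-06) in place of -2.17 ± 0.34 (adjusted p = 4.84e-05), and that of SYT5 was under 1. The SV2B call in this step ended without S2D30 replicate 2 (adjusted p = 0.0673), and that of SYT7 (-0.42 ± 0.14, adjusted p = 0.0218) without any 1 of 4 libraries (S2D4 replicates 2 and 3, S2D30 replicates 3 and 4; adjusted p 0.0602 to 0.0696).

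In GIMEN, 15 of the 27 tested genes were higher and 6 lower after 30 days, where 35.5% of all 13517 tested genes were higher and 36% lower (71.4% called). By 1 log2 unit or more 11 rose and 3 fell, beside 11.8% and 12.9%. Their median log2 change was 0.76, beside 0.02 over all genes. The libraries of the 2 groups did not overlap for 21 of the 27, against 75.4% of all genes. A gene in this line could be tested only if it had counts in at least 1 group, and 17 of the 44 had too few.

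The largest change in either direction was in RIMS1, which was at 82, 79.7 and 83.1 CPM in untreated GIMEN and 0.0587, 0.317 and 0.128 CPM in D30, between 1 and 5 counts a library (-8.91 ± 0.17, adjusted p = 6.96e-12). Its sister gene RIMS2 fell from 81, 78.8 and 83.1 CPM to 35.1, 23.7 and 25 CPM (-1.56 ± 0.12, adjusted p = 3.45e-07), and PCLO from 6.4, 4.71 and 4.58 CPM to 1.06, 1.65 and 1.03 CPM (-2.09 ± 0.26, adjusted p = 2.27e-05). None of these 3 overlapped between the groups. RIMS3 was at or below 3 counts in each untreated library and at 0.705, 0.825 and 0.707 CPM in D30, at least 4.74-fold higher. ERC2 rose from 0.361, 0.491 and 0.735 CPM to 2.17, 1.21 and 1.54 CPM (1.61 ± 0.39, adjusted p = 0.0029) and RAB3A from 2.27, 3.09 and 2.2 CPM to 5.05, 6.35 and 4.56 CPM (1.04 ± 0.22, adjusted p = 0.00124), both without overlap. RAB3B, at 291, 289.6 and 297 CPM and 303, 296 and 274 CPM, overlapped between the groups (-0.04 ± 0.06, adjusted p = 0.608), and UNC13B was higher by 0.76 ± 0.09 (adjusted p = 1.27e-05). The RIMS1 and ERC2 promoters, 2 of the 3 with the AP-1 letters, belong to a gene that fell and a gene that rose in this line.

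Of the synaptotagmins, SYT11 rose from 183, 176 and 167 CPM to 458, 491 and 484 CPM (1.42 ± 0.06, adjusted p = 4.55e-09), and in D30 it had the highest level per kilobase of the 44 genes, 91.2 ± 3.27 CPM per kilobase (SD, n = 3). In untreated GIMEN that place was held by STX1A, at 43.6 ± 0.622. SYT1 rose by 0.60 ± 0.09 (adjusted p = 0.000149), and SYT7, at 0.103, 0.393 and 0.17 CPM and 0.705, 1.02 and 1.03 CPM, by 1.96 ± 0.50 (adjusted p = 0.00443). SYT4 had no count in 2 of the 3 untreated libraries and none in D30.

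Among the SNAREs, both vesicle SNAREs rose: VAMP1 from 7.58, 7.42 and 6.89 CPM to 16.7, 26.1 and 24 CPM (1.58 ± 0.16, adjusted p = 4.38e-06) and VAMP2 from 53.3, 52.6 and 47.6 CPM to 129, 136 and 98.2 CPM (1.22 ± 0.11, adjusted p = 1.16e-06). Their partner SNAP25 fell from 31.8, 29.9 and 34.2 CPM to 28.8, 20.4 and 21.5 CPM (-0.47 ± 0.12, adjusted p = 0.00458), and STX1A, at 163, 161 and 158 CPM and 166, 165 and 127 CPM, was not called (-0.10 ± 0.09, adjusted p = 0.328). NSF was lower, at -0.52 ± 0.07 (adjusted p = 4.06e-05). Of VAMP1 exon bases, 9.47% overlap a gene on the other strand.

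SV2B rose from 0.206, 0.246 and 0.113 CPM to 0.94, 2.41 and 2.63 CPM (3.30 ± 0.53, adjusted p = 0.000156). SV2A, at 126, 124 and 122 CPM and 114, 115 and 109 CPM, differed by -0.17 ± 0.05 (adjusted p = 0.0166), a call that ended without untreated replicate 1 or 2 (adjusted p 0.0604 and 0.0555) and with upper-quartile scaling (0.0718). DNM1 rose from 41.6, 44.2 and 41.3 CPM to 77.9, 95.5 and 70.7 CPM (0.91 ± 0.10, adjusted p = 6.47e-06) and SYNJ1 by 0.88 ± 0.14 (adjusted p = 0.000131). NRXN3 went from 0.464, 0.344 and 0.226 CPM to 3.7, 2.03 and 1.93 CPM (2.83 ± 0.41, adjusted p = 7.59e-05), while NLGN2, at 167, 167 and 164 CPM and 156, 194 and 165 CPM, overlapped (0.02 ± 0.08, adjusted p = 0.828). DLG4 rose from 82.6, 82.1 and 82.3 CPM to 185, 201 and 143 CPM (1.07 ± 0.10, adjusted p = 2.28e-06). SHANK1, at 0.825, 0.344 and 0.283 CPM and 1.41, 1.21 and 1.35 CPM, rose by 1.40 ± 0.42 (adjusted p = 0.0105), which lost its call without untreated replicate 2 or 3 (adjusted p 0.0574 and 0.0519).

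**Figure D3:**
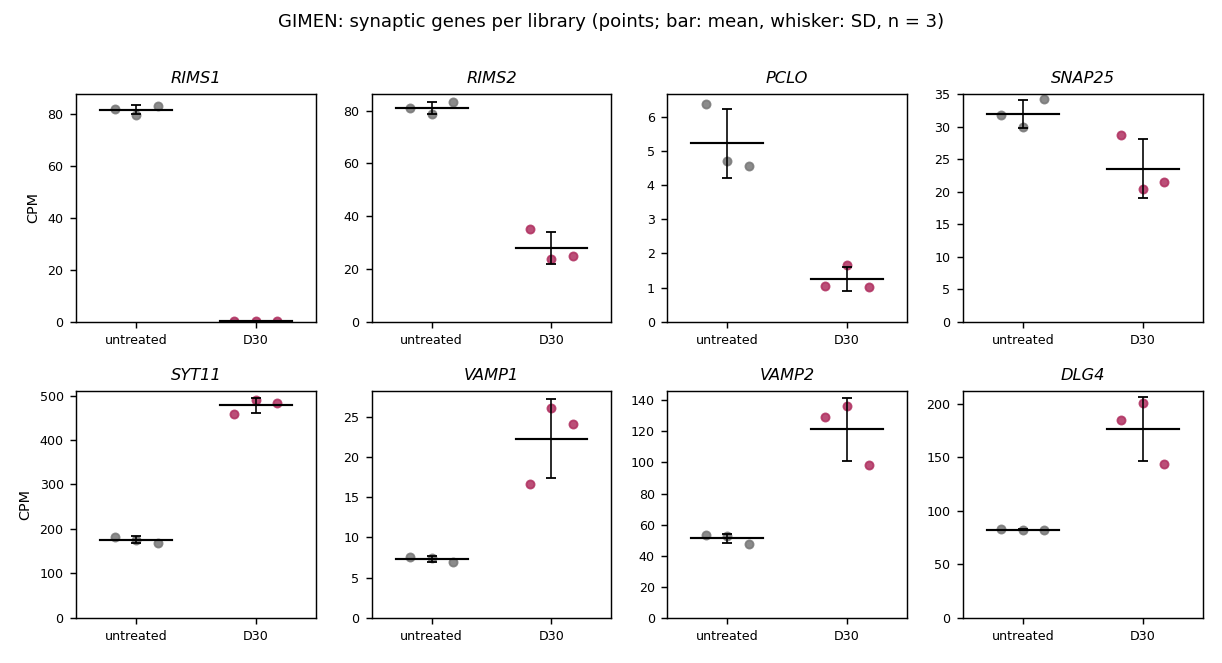
Each panel gives the CPM (vertical axis, from 0) of 1 gene in the 3 untreated and 3 D30 libraries of GIMEN, with the mean and SD. RIMS1 goes from 79.7 CPM or more to 0.317 CPM or less, while SYT11, VAMP1, VAMP2 and DLG4 are higher in all D30 libraries.

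The 30-day changes of the lines were compared as an interaction in the model of 14 libraries. The difference (SK-N-AS minus GIMEN) was positive for 9 and negative for 14 of 41 genes tested, where 24.5% and 25.2% of all 16246 genes were (49.7% called). Of the 26 genes tested in both lines, 14 were called in both, beside 53.5% of all 13088 genes tested in both. Of the 26, 7 rose in both (SV2B, SYT11, VAMP2, UNC13B, SYNJ1, NRXN3 and SHANK1), NSF and RIMS2 fell in both, and 5 went opposite ways, beside 20.1%, 22.2% and 11.2% of all genes. SNAP25 rose in SK-N-AS and fell in GIMEN, and RIMS3, RAB3A, ERC2 and DNM1 fell in SK-N-AS and rose in GIMEN. The differences for these 5 were 1.18 ± 0.18 (adjusted p = 5.42e-05), -5.14 ± 0.57 (adjusted p = 1.31e-06), -1.63 ± 0.25 (adjusted p = 3.67e-05), -2.85 ± 0.53 (adjusted p = 0.000258) and -2.01 ± 0.22 (adjusted p = 9.12e-07), in that order. RIMS3 was at the floor in untreated GIMEN, so the size of its fitted difference is not a measured fold.

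SHANK1 rose in both lines but more in SK-N-AS, with a difference of 5.56 ± 0.71 (adjusted p = 6.76e-06), and STX1A, RAB3B and HOMER1, which rose in SK-N-AS without a call in GIMEN, differed by 1.99 ± 0.15 (adjusted p = 1.31e-08), 1.12 ± 0.14 (adjusted p = 6.44e-06) and 1.06 ± 0.22 (adjusted p = 0.000598). PCLO differed by 2.52 ± 0.47 (adjusted p = 0.00031) and VAMP1 by -1.75 ± 0.25 (adjusted p = 2.28e-05). For VAMP2, UNC13B, SYNJ1 and NRXN3 the difference was not called, at 0.17 ± 0.17, 0.06 ± 0.21, 0.09 ± 0.24 and 0.75 ± 0.51, so that differences of about these errors could not be seen. Calls for UNC13A, NRXN2 and SV2B were close to the threshold (adjusted p 0.0495, 0.0446 and 0.03) and ended without any of 10, 10 and 6 single libraries of both lines. Their values without these ranged from 1.87 to 2.27, from -4.14 to -3.32 and from -2.03 to -1.73. NRXN2 was at the floor in both GIMEN groups, so no 30-day change was measurable there and its fitted difference is not read as a difference between the lines. UNC13A was too low to be tested in GIMEN alone, at 5 to 12 counts a library, so its change there was poorly measured. SV2B had 2 to 5 counts a library in untreated GIMEN, so the size of its difference is uncertain. The DLG4 difference (-0.62 ± 0.16, adjusted p = 0.00434) was not called in a model of all 22 libraries (adjusted p = 0.264).

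**Figure D4:**
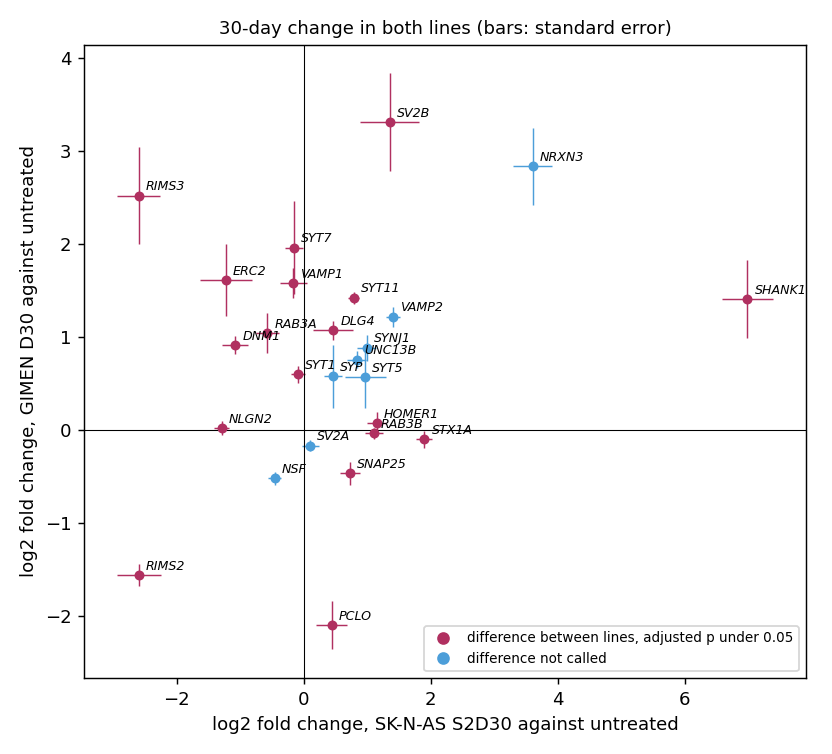
Points give the log2 fold change after 30 days in SK-N-AS (horizontal) and GIMEN (vertical) of the 26 genes tested in both lines, with standard errors, and red marks a difference between the lines at an adjusted p under 0.05. RIMS3, ERC2, DNM1 and RAB3A lie at the upper left, SNAP25 at the lower right, and NRXN3 and VAMP2 at the upper right in blue.

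The lines differed before treatment, where 21 of 41 tested genes were higher and 11 lower in SK-N-AS than in GIMEN, against 38.6% and 35.3% of all genes (73.9% called). The libraries of the lines did not overlap for 31 genes (71.7% of all), and 19 were higher and 8 lower by 1 log2 unit or more (23.7% and 18.5%). Of the genes at the floor in untreated GIMEN, RIMS3 was at least 1177-fold, SYT4 at least 554-fold, SYN2 at least 141-fold, RAB3C at least 44-fold, SYN1 at least 29.8-fold and SNAP91 at least 16.2-fold higher in SK-N-AS. SYP (4.84 ± 0.22, adjusted p = 3.69e-12), UNC13A (5.25 ± 0.43, adjusted p = 6.70e-09) and SYT7 (6.38 ± 0.29, adjusted p = 2.69e-12) were also higher there. GIMEN had more RIMS1, RIMS2, RAB3B and STX1A, with log2 values of -7.78 ± 0.24, -4.78 ± 0.15, -6.21 ± 0.11 and -2.97 ± 0.11. Within the RIM and RAB3 families, RIMS3, RAB3A and RAB3C were thus higher in SK-N-AS and RIMS1, RIMS2 and RAB3B higher in GIMEN. Upper-quartile scaling moved the median of all genes in this comparison by 0.15, and the calls for SYT11 and NRXN3 changed with it (adjusted p 0.257 and 0.0472).

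**Figure D5:**
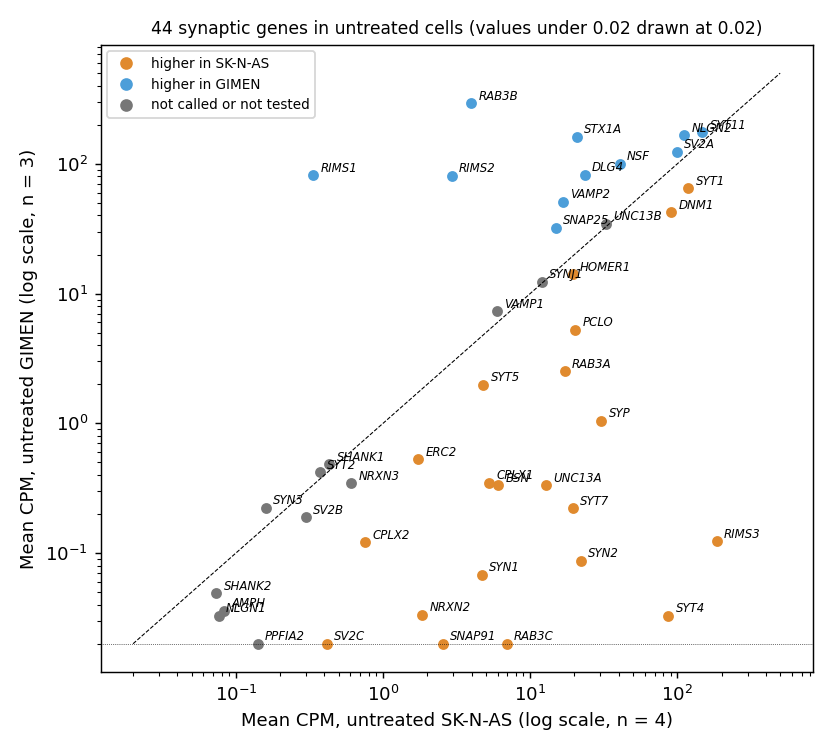
Mean CPM of the 44 genes in untreated SK-N-AS (horizontal) and untreated GIMEN (vertical), both on log axes, coloured by the call between the lines; values under 0.02 are drawn at 0.02. RAB3B, RIMS1 and RIMS2 lie far above the line of equal levels and RIMS3, SYT4 and SYN2 far below it.

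Other genes of the synapse were counted beside the 44. Of 50 further synaptic genes 39 were tested in SK-N-AS. In S1D4 7 of them were higher and 10 lower than in untreated cells, beside 17.6% and 22.4% of all genes, with a median log2 change of 0.06. In S2D4 8 were higher and 22 lower, beside 30.9% and 32.2%, with a median of -0.75. In S2D30 8 were higher and 24 lower, beside 33.8% and 36.5%, with a median of -1.12. IL1RAPL1 and CADPS rose most (8.92 ± 0.44, adjusted p = 2.56e-11 and 4.03 ± 0.59, adjusted p = 1.28e-05), while DLG2 differed by -5.58 ± 0.29 (adjusted p = 5.61e-11) and RIMS4 was at least 37.7-fold lower. In GIMEN 12 of 28 were higher and 8 lower, beside 35.5% and 36% of all genes, with SYT12 at 2.94 ± 0.26 (adjusted p = 1.20e-06) and LRRTM3 at -5.18 ± 0.24 (adjusted p = 6.10e-09). The vesicular acetylcholine transporter SLC18A3 fell from 26.3, 24.8, 21 and 17.1 CPM in untreated SK-N-AS to 0.175, 0.154, 0.0906 and 0.261 CPM in S2D30, without overlap (-7.02 ± 0.35, adjusted p = 2.99e-11). Of the 4 transporters tested only SLC17A7, for glutamate, was higher, by 1.69 ± 0.23 (adjusted p = 6.70e-06). Of 54 tested genes for membrane fusion and endocytosis outside the synapse 31 were higher and 15 lower in S2D30, and of 53 in GIMEN D30 25 were higher and 13 lower, beside the same shares of all genes in each line.

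REST, which represses many synaptic genes through RE1, and its partners formed a list with splicing regulators that act on neuronal exons. In SK-N-AS 2 of its 16 tested genes were higher and 8 lower in S2D30, beside 33.8% and 36.5% of all genes. REST itself was at 27.5, 27.4, 29 and 38.4 CPM in untreated cells and 24.5, 28.8, 32.8 and 29.5 CPM in S1D4, then at 72.6, 70.7, 65.9 and 56.6 CPM in S2D4 and 66.6, 66.5, 66.2 and 71.4 CPM in S2D30. All second-stage libraries were above all earlier ones (1.09 ± 0.11, adjusted p = 4.33e-07 and 1.11 ± 0.11, adjusted p = 1.97e-07). SRRM4, the splicing activator that acts on the REST transcript, was lower by a log2 value of -4.19 ± 0.34 (adjusted p = 8.99e-09) in S2D30, and the corepressor RCOR2 by -3.53 ± 0.34 (adjusted p = 8.78e-08). In GIMEN REST was at 70.3, 63.7 and 62.3 CPM and 60.8, 68 and 62.4 CPM (-0.07 ± 0.07, adjusted p = 0.416, not called), with 3 of 13 tested genes of the list higher and 7 lower, beside 35.5% and 36% of all genes.

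Markers of cell state moved in the same libraries. The summed level of the 9 adrenergic markers in SK-N-AS was 1651 to 1879 CPM untreated, 1375 to 1643 CPM in S1D4, 595 to 913 CPM in S2D4 and 212 to 261 CPM in S2D30. That of the 9 mesenchymal markers was 884 to 1398, 1372 to 1573, 2881 to 5102 and 3276 to 3953 CPM. In GIMEN the mesenchymal sum fell, from 38173 to 39776 CPM untreated to 21057 to 24092 CPM in D30. The adrenergic sum there went from 452 to 475 CPM to 247 to 296 CPM. The 10 neuronal markers summed to 440 to 526 CPM untreated, 575 to 599 CPM in S1D4, 417 to 450 CPM in S2D4 and 105 to 128 CPM in S2D30, and in GIMEN they went from 597 to 641 CPM to 157 to 226 CPM. Of the 10, 5 were at the floor in untreated GIMEN (NEFL, NEFM, NEFH, ELAVL4 and STMN2) and 6 in D30. The GIMEN sum thus rests on fewer genes than that of SK-N-AS, where none was at the floor. The 9 Schwann and glial markers summed to 3.05 to 4.46 CPM in untreated SK-N-AS, 7.32 to 10.2 CPM in S1D4, 3.26 to 4.80 CPM in S2D4 and 3.42 to 4.08 CPM in S2D30, so that S1D4 lay above the other groups, with CDH19 at the floor in all 3 treated groups. In GIMEN they went from 8.84 to 9.65 CPM to 6.41 to 8.16 CPM. The 6 leukocyte markers summed to 159.9 to 208 CPM in untreated SK-N-AS with CD3E at 0, to 52.1 to 67.2 CPM in S1D4, 24.3 to 26.7 CPM in S2D4 and 3.12 to 5.65 CPM in S2D30, and to at most 1.75 CPM in GIMEN. Of the 6, 4 had too few counts to be tested in SK-N-AS, so the sum there rests mostly on 2 genes and is not read as leukocytes. The part of these markers in the changes of the synaptic genes was not tested.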

How the data were processed

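The authors deposited whole-number counts per gene symbol for all 22 libraries in 1 table. Per the labels' protocols, RNA was extracted with a Norgen kit with DNase treatment and sequenced as paired ends on a HiSeq X; the aligner, counter, annotation, genome build and use of strand are not given in the sources used here. Samples were grouped by their labels. Total counts of 16456484 to 37506800 per library set the precision.

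Differences were tested with edgeR 4.0.16 (quasi-likelihood, TMM factors, R 4.3.3) in 1 model of 16 SK-N-AS libraries, 1 of 6 GIMEN libraries and 1 of 14 untreated and 30-day libraries, after filterByExpr (minimum count 10, minimum total 15), with Benjamini-Hochberg adjustment over all genes and a threshold of 0.05. The models were tested on simulated data. Printed CPM use 1 TMM scaling over the 22 libraries. A group with at most 3 counts in each library was at the floor, and folds against it are bounds from 3 counts per library, covering counting error only. Levels per kilobase, shared words and overlaps used GENCODE v29.

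Members and lists were chosen with earlier results of these data known. By rule, values in each library went to members among the 3 largest non-overlapping rises or falls of a treated group (a highest group mean of at least 1 CPM), called in opposite directions in the lines, or highest in their role list. Those of SYT2, SYT4, SYP, SV2C, SYN1, VAMP1, VAMP2, CPLX1, BSN, RAB3C, HOMER1 and REST were added after their values were seen. Same-numbered replicates were not treated as paired, since not every pair of same-numbered samples had deviations correlated above 0.1. Between untreated and S1D4 cells of SK-N-AS these correlations were 0.40, 0.35, 0.03 and 0.37 for replicates 1 to 4. Between other groups they were at most 0.185. What untreated and S1D4 libraries of the same number shared was not tested. Alternatives were other scalings, DESeq2 1.42.0, other filters, a block, a term for replicates 3 and 4 of untreated and S1D4 cells, other model samples and each library left out.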

Additional observations from a re-analysis of the deposited data

Results flagged for a closer look

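Checks for a library far from the rest of its group covered 25 members in the 4 SK-N-AS groups, 100 checks in all, and 11 stood out (Dixon's test at 95%; chance gives about 1 in 20). Of these, 8 were S2D4 replicate 4. In it DLG4 was at 107.3 CPM (29.24 to 34.78 in the other 3 libraries), DNM1 at 100.2 (56.93 to 61.1), RIMS3 at 91.77 (25.05 to 29.89), SV2A at 97.25 (57.86 to 59.16), SYT5 at 53.05 (17.23 to 19.96) and SYN2 at 5.574 (4.424 to 4.613), all above the others. STX1A, at 81.27 CPM (117.6 to 119), and SYT11, at 251.1 CPM (287.4 to 293.9), were below them. The other 3 were CPLX2 in S1D4 replicate 4, at 0.08869 CPM against 0.7594 to 0.8438, SYN2 in S2D30 replicate 2, at 2.508 CPM against 3.378 to 3.519, and RIMS1 in S2D4 replicate 1, at 0.04657 CPM against 0. The RIMS1 value is 1 count. With the rest of the group tied at 0 the test flags any count, so it says nothing of that library. Why these libraries stood apart was not tested.

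The 30-day change differed between the lines for 23 members by the interaction term (edgeR, adjusted over all genes; log2, SK-N-AS minus GIMEN). Among active zone genes the values were 6.53 for RIMS1, 2.52 for PCLO, 2.10 for UNC13A and 1.12 for RAB3B, and -5.14 for RIMS3, -2.85 for ERC2, -2.54 for BSN, -1.63 for RAB3A and -1.07 for RIMS2. RIMS1 was at the floor in SK-N-AS S2D30 and RIMS3 in untreated GIMEN, so the sizes of their fitted values depend on the model's handling of low counts and are no measured folds. Of the 6 synaptotagmins 3 had a smaller change in SK-N-AS than in GIMEN, with -2.13 for SYT7, -0.70 for SYT1 and -0.65 for SYT11, and the other 3 were not called. Of the SNAREs, STX1A had 1.99, SNAP25 1.18 and VAMP1 -1.75. SV2B had -1.99 and SYN3 3.30, and DNM1 had -2.01. SYN3, UNC13A and BSN were too low to be tested in GIMEN alone, at 3 to 7, 5 to 12 and 5 to 17 counts a library. Their change in that line was thus poorly measured, and the sizes of their values are no measured folds. SYT7 and SV2B were tested in GIMEN, but had 2 to 8 and 2 to 5 counts a library in its untreated cells. The sizes of their values are thus uncertain too. The adhesion genes NRXN2 and NLGN2 had -3.81 and -1.32. NRXN2 was at the floor in both GIMEN groups, so its value holds no measured change in that line. The scaffolds SHANK1, HOMER1 and DLG4 had 5.56, 1.06 and -0.62. Line, dose, medium, serum and first stage cannot be told apart in these values.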

How the results depend on the processing

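No member's called value changed direction under any alternative run. Asking for a log2 change of at least 1 moved the counts most, to 11 higher and 1 lower in S1D4, 12 higher in S2D4, 7 lower from S2D4 to S2D30 and 3 lower in GIMEN; the construction of that alternative gives fewer calls. Leaving out 1 library at a time, members higher and lower ranged over 16 to 19 and 2 to 4 in S1D4, 16 to 20 and 8 to 14 in S2D4, and 17 to 19 and 12 to 13 in S2D30. They ranged over 11 to 12 and 11 to 16 from S1D4 to S2D4, 11 to 12 and 13 to 15 from S2D4 to S2D30, and 14 to 16 and 5 to 6 in GIMEN. Between untreated lines they were 20 to 21 and 11 to 12, and for the difference of the 30-day change 8 to 9 and 12 to 14. Of 2617 member values recomputed this way, 69 lost a call and 25 gained one. With the replicate number as a block, 4 of 309 member values lost a call (SYT11, CPLX2 and HOMER1 between untreated lines, adjusted p 0.106, 0.0602 and 0.328, and the NRXN2 difference between lines, 0.0685) and 1 gained one (RIMS2 in S1D4, 0.0131). A term for replicates 3 and 4 of untreated and S1D4 cells left all second-stage libraries at the level of replicates 1 and 2. It ended the S2D30 calls of SV2B and SYT5 (adjusted p 0.0882 and 0.0649) and the S2D4 calls of CPLX2 and NSF (0.133 and 0.113), and that of CPLX2 from S1D4 to S2D4 (0.0645). It gave calls for RIMS2 in S1D4 (0.0264), DNM1 in S2D4 against untreated and S1D4 (0.00365 and 0.00463) and SNAP91 in S2D4 and S2D30 (0.00675 and 0.0232). Genes with a few counts per library, such as CPLX2, SHANK2 and SV2C, are limited by depth.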
